A study of Mus musculus with 18 samples.

Results

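Translation efficiency (TE) was compared between HrasG12V shScram and WT shScram epidermal cells of mouse embryos. These are bulk samples in which spinous keratinocyte markers summed above basal ones in each library. TE was taken as ribosome footprints relative to RNA over the same coding sequence, so that the TE difference of a gene is its footprint difference minus its RNA difference on the log2 scale. All 3 footprint and 3 RNA libraries of each condition entered, which made 12 of the 18 libraries of the series, and 10793 of the 20655 genes counted held enough reads in both kinds of library to be tested. HrasG12V shScram embryos were of strain FR-HrasG12V and carried the oncogenic allele, and WT shScram embryos were of a Rosa26 strain that carries an ACTB-driven tdTomato and EGFP reporter, so strain and genotype cannot be told apart. Both groups received a scrambled shRNA by injection in utero at E9.5 and were taken at E18.5, and cycloheximide, which holds ribosomes on the mRNA, was present while the epidermis was separated from the dermis and dissociated. The genotype label of WT shScram footprint library 1 reads Rosa26, where those of the other WT libraries read WT, and it was kept in its group. Whether the 3 libraries of each group stem from different animals is not stated, and p-values therefore describe the spread among libraries, which may be technical.

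Hras encodes a small GTPase that relays growth factor signals to the RAF, MEK and ERK kinases, and the G12V form stays bound to GTP. ERK and its parallel pathways act on transcription and also on the initiation of translation, through the cap-binding factor eIF4E and the factor eIF2 that carries the initiator tRNA. A footprint count alone cannot separate more mRNA from more ribosomes on each mRNA, which is why it is read against the RNA of the same gene.

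The sequences around the start codon are shown for the genes whose TE difference was called in every fit without 1 library or, for higher TE, for the 6 genes of smallest p that the rule for named genes takes, which leaves out genes under 10 CPM in either kind and genes with clone names. Each holds 15 bases of the leader, the start codon in capitals and 12 coding bases of the GENCODE M21 transcript (mm10), read on the strand of the gene. The first 9 genes had lower TE in HrasG12V shScram and the last 6 had higher TE.
Fxyd3: ggtcaaggctttgacATGcaagaggttgtt
1810022K09Rik: gcgtgaactttgacaATGgccaagaacaaa
Cox7a2: aacaaccgagccaagATGttgcggaatctg
Hist1h3a: tttctagtttttgctATGgctcgtactaag
Nit2: caccgtggaagagccATGtctactttccgc
Snrpb2: gggttctacccaaacATGgatatcagacca
Tmem33: tcccgagtgtctcccATGgcggatacgacc
Ndufa4: gcctgtgccgcaaacATGctccgccagatc
Zfp207: ctgtagggcgcagttATGggtcgcaagaag
Ctnnbip1: aactgggccagggggATGaaccgcgaggga
Mif4gd: cgggcttagaccgtcATGagcgaggccagt
Id1: cctgttctcaggatcATGaaggtcgccagt
Klhl18: cggcggccggggaagATGgtggaggacggc
Arf6: ggctcttccgacgcgATGgggaaggtgcta
Pop5: tccggcgcggacgccATGgtgcggttcaag
A purine stood at the third base before the start codon in 91.5% of the 106 lower genes that had such a window and in 81.3% of the 16 higher genes, against 87.3% of 10420 tested genes. The context around the start codon is a description of these transcripts and was not tested.

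Base composition is one property by which the RNA libraries differed. The first 120 coding bases are shown with G and C in capitals for Snrpb2, a gene of lower TE and low GC, Id1, a gene of higher TE, and Hist1h3a, a gene of lower TE with a coding sequence rich in GC. G and C made up 33.3%, 66.7% and 69.2% of these stretches.
Snrpb2: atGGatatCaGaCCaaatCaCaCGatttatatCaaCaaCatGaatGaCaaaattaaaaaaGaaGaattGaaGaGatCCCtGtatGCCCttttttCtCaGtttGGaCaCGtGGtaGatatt
Id1: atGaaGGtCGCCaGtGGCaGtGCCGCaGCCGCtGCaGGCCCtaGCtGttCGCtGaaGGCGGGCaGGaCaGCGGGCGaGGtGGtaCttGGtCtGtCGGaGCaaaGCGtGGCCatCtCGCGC
Hist1h3a: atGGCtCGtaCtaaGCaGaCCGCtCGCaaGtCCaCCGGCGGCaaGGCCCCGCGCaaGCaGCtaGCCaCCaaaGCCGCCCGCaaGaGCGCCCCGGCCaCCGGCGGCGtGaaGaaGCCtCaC

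Footprint libraries held 3641185 to 4579407 counts in HrasG12V shScram and 3319175 to 4294388 in WT shScram. RNA libraries were less even, with 5214473, 1771365 and 4310239 counts in HrasG12V shScram and 2523896, 2707252 and 5505386 in WT shScram. HrasG12V shScram RNA libraries 1 and 3 stood apart from the other 10 libraries by coding GC. With the tested genes in 5 equal classes by coding GC, the lowest class was higher than the highest by 0.52 and 0.71 (log2, medians relative to the 9 libraries of that kind) in these 2 libraries, against −0.24 to 0.18 in the other 10. The count of TE calls is therefore also given without both. Basal keratinocyte markers (16 genes) summed to 13645 to 18446 CPM (counts scaled to a common library size) of footprints in HrasG12V shScram and 12213 to 17078 CPM in WT shScram, with RNA sums of 10976 to 14856 CPM and 15928 to 20921 CPM. Spinous keratinocyte markers (12 genes) summed above the basal markers in each of the 12 libraries. Their footprint sums were 32331 to 39512 CPM in HrasG12V shScram and 23018 to 45255 CPM in WT shScram. Their RNA sums were 35265 to 63925 CPM and 66089 to 99698 CPM in the same order. Granular and cornified layer markers (24 genes) summed to 3768 to 3807 CPM and 2411 to 5234 CPM of footprints in that order. Of 9 red cell markers, 6 globin genes were at 0 in all 12 libraries, where the counting of reads shared by near-identical copies may enter, and the list summed to 6.26 to 22.1 CPM of footprints in HrasG12V shScram and 6.99 to 10.3 CPM in WT shScram. The Langerhans cell gene Cd207 was at 0 as well.

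Hras itself was not called in TE. It had 81.8, 74.6 and 79.0 CPM of footprints in HrasG12V shScram, against 73.2, 86.7 and 69.6 CPM in WT shScram, and 234, 180.4 and 215 CPM of RNA against 260.3, 226 and 209 CPM. The TE difference was 0.17 (95% interval −0.29 to 0.64, adjusted p 0.766), and counts per gene carry no allele. Eif2b5, the gene targeted in the third condition of the series, had 126, 387 and 144 CPM of RNA in HrasG12V shScram and 158, 178 and 158 CPM in WT shScram, and its TE difference of −0.49 (adjusted p 0.608) was not called. HrasG12V shScram RNA library 2 was far above the other libraries, and without it the difference was 0.18.

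TE was called different in 126 genes (1.17% of those tested) at a Benjamini-Hochberg adjusted p under 0.05 in edgeR's quasi-likelihood test, and 110 of them (1.02%) were lower in HrasG12V shScram and 16 (0.148%) higher. At an unadjusted p under 0.05 there were 1704. The lower calls came mainly from RNA that was higher in HrasG12V shScram while footprints differed little. RNA was higher in all 110 and was itself called higher in 101, against a background of 7.87% of all tested genes, whereas footprints were called lower in 4 (0.361% of all). Those 4 were Fxyd3, Slc15a2, Sprr1a and Tmem256, of which Slc15a2 and Tmem256 lie outside the rule for named genes and were chosen after their values were seen. The median of the 110 was −1.15 in TE, 0.94 in RNA and −0.22 in footprints (log2), beside −0.02, 0.01 and −0.01 over all genes tested. Footprints were higher in 15 of the 110. The 16 higher genes had footprints higher and RNA lower in each, and medians of 1.16 in TE, −0.63 in RNA and 0.49 in footprints. RNA was called lower in 11 of the 16 (4.63% of all genes) and footprints were called higher in the other 5 (0.991% of all genes). The RNA and footprint parts come from the same libraries as the TE calls and describe them, without adding support.

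**Figure D1:**
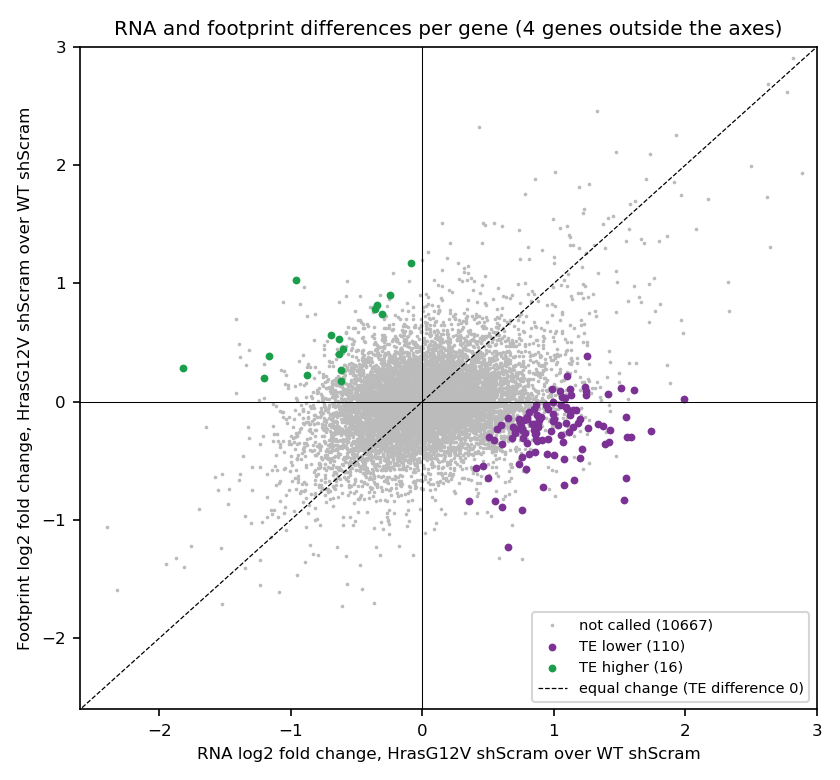
Footprint log2 fold change (vertical) against RNA log2 fold change (horizontal), HrasG12V shScram over WT shScram, for each tested gene, with genes of called TE in colour and the dashed line at equal change. The 110 genes of lower TE lie to the right of 0 in RNA and mostly just below 0 in footprints, and the 16 genes of higher TE lie above 0 in footprints and left of 0 in RNA (4 genes fall outside the axes).

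Over all tested genes, calls in RNA outnumbered calls in footprints. In the same fit, RNA was called in 1349 genes (12.5%; 849 higher and 500, or 4.63%, lower in HrasG12V shScram) and footprints in 146 (1.35%; 107 higher and 39 lower). The 849 genes of higher RNA had a median RNA difference of 0.75 and a median footprint difference of 0.09. Of them, 60 were also called higher in footprints, against 0.991% of all genes. The 107 genes of higher footprints had medians of 0.99 in footprints and 0.74 in RNA. RNA was higher in 96 of them, against 5510 of all 10793 genes. RNA groups did not overlap in 103 of the 110 lower genes, against 26.2% of all genes (13.8% with HrasG12V shScram higher). Footprint groups did not overlap in 25 of the 110, against 20.3% of all genes (9.9% with HrasG12V shScram lower). The 110 were chosen on these same libraries, so their separation is largely fixed by the choice and adds no support.

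How many genes were called depended on single libraries. Leaving out HrasG12V shScram footprint library 1, 2 or 3 gave 26, 21 and 13 calls, and leaving out WT shScram footprint library 1, 2 or 3 gave 11, 70 and 384. Without HrasG12V shScram RNA library 1, 2 or 3 the count was 14, 693 and 20, and without WT shScram RNA library 1, 2 or 3 it was 29, 32 and 59. Of these 12 fits, the count was above 126 in those without HrasG12V shScram RNA library 2, the shallowest, and without WT shScram footprint library 3, and below it in the others. Without HrasG12V shScram RNA libraries 1 and 3 together, 8 genes were called, 2 of them among the 126 (Fxyd3 and Hist1h2af), with library 2 left alone in its group and taken to vary as much as libraries elsewhere. The 110 lower genes had a median TE difference of −0.90 without the 2 libraries, a description of genes that were chosen with them included.

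**Figure D2:**
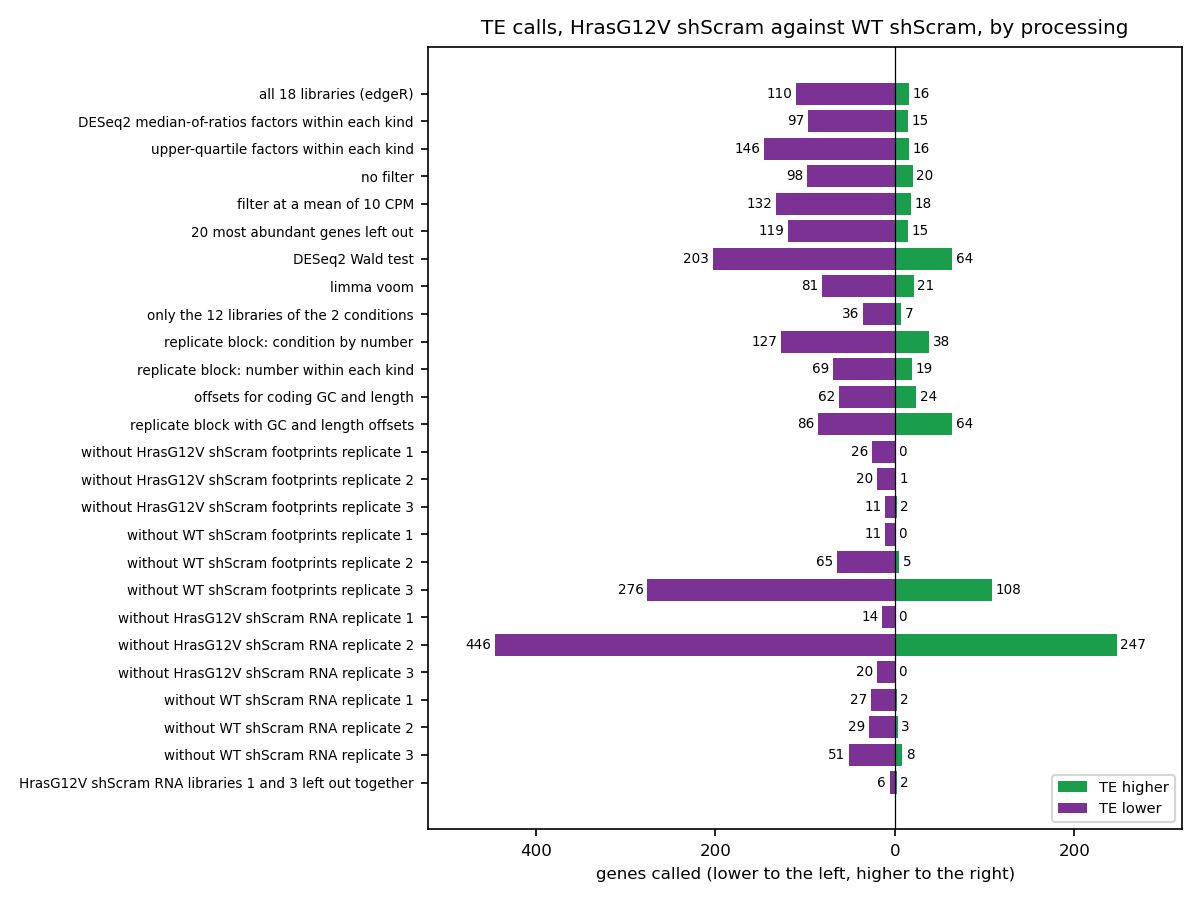
Number of genes called lower (left of 0) and higher (right of 0) in TE, HrasG12V shScram against WT shScram, in the fit of all 18 libraries and under the alternatives named on the axis. Lower calls outnumber higher calls in each bar pair drawn, from 6 and 2 without HrasG12V shScram RNA libraries 1 and 3 to 446 and 247 without HrasG12V shScram RNA library 2.

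In 9 genes, all lower, the call was kept in each of the 12 fits without 1 library. They were Fxyd3, Cox7a2, Ndufa4, Tmem33, Nit2, Snrpb2, Zfp207, Hist1h3a and 1810022K09Rik, the last of which is a gene known only by a clone name, which the rule for named genes leaves out. Fxyd3 (ENSMUSG00000057092.12; mm10 chr7:31068172-31076704, minus strand) encodes a small membrane protein of the FXYD family, which regulates the sodium pump. Its footprints were 164, 128 and 130.0 CPM in HrasG12V shScram, against 290.4, 206 and 170.1 CPM in WT shScram. Its RNA was 92.3, 83.0 and 80.2 CPM in HrasG12V shScram, against 40.4, 42.2 and 33.3 CPM in WT shScram. Every HrasG12V library was thus below every WT library in footprints and above every WT library in RNA. Fxyd3 TE fell 3.52-fold (log2 −1.81, SE 0.24, adjusted p 0.00071), with both parts called (footprints −0.66, adjusted p 0.0382; RNA 1.16, adjusted p 0.000272). The highest adjusted p with 1 library left out was 0.00779, and without HrasG12V shScram RNA libraries 1 and 3 it was 0.0192. Coding exons of Fxyd3 overlap an exon of Lgi4 on the other strand, and Lgi4 had 0 to 2 counts per library.

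Tmem33 (ENSMUSG00000037720.16; mm10 chr5:67260565-67291461, plus strand), which encodes a membrane protein of the endoplasmic reticulum, followed the more common pattern. Its footprints were 71.7, 79.8 and 69.4 CPM in HrasG12V shScram, against 126, 88.5 and 57.6 CPM in WT shScram, and its RNA was 30.9, 23.2 and 37.9 CPM and 11.7, 10.1 and 10.4 CPM. The footprint groups overlapped and the RNA groups did not. TE of Tmem33 fell 3.61-fold (log2 −1.85, SE 0.31, adjusted p 0.00934). Nit2, which encodes an omega-amidase of glutamine metabolism, fell 2.41-fold in TE (SE 0.23 on the log2 scale, adjusted p 0.0119), with 26.6, 28.2 and 32.4 CPM of RNA in HrasG12V shScram against 15.8, 14.7 and 14.6 CPM in WT shScram. Its footprints were lower in every HrasG12V library (55.0, 66.7 and 56.8 CPM, against 83.3, 70.4 and 68.1 CPM), although the footprint difference of −0.31 was not called (adjusted p 0.378). Snrpb2, a protein of the U2 snRNP of the spliceosome, had RNA at 38.7, 34.9 and 39.9 CPM in HrasG12V shScram, against 18.2, 18.2 and 19.1 CPM in WT shScram with a TE fold change of −1.23 (log2, SE 0.21, adjusted p 0.01). Zfp207, a spindle and kinetochore protein, had 115, 104 and 122 CPM of RNA in HrasG12V shScram and 58.2, 67.0 and 60.5 CPM in WT shScram and a TE fold change of −1.06 (log2, SE 0.20, adjusted p 0.0119). In both genes the RNA groups did not overlap and the footprint groups did. 1810022K09Rik had 17.8, 16.6 and 28.7 CPM of RNA in HrasG12V shScram, against 6.47, 6.59 and 4.14 CPM in WT shScram, and 137, 115 and 90.4 CPM of footprints, against 137, 96.9 and 102 CPM (TE −1.96 on the log2 scale, adjusted p 0.00934). Without HrasG12V shScram RNA libraries 1 and 3, the adjusted p of Tmem33, Nit2, Snrpb2, Zfp207 and 1810022K09Rik was 0.242, 0.155, 0.164, 0.164 and 0.172, and with offsets for coding GC and length that of Snrpb2 was 0.0638.

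**Figure D3:**
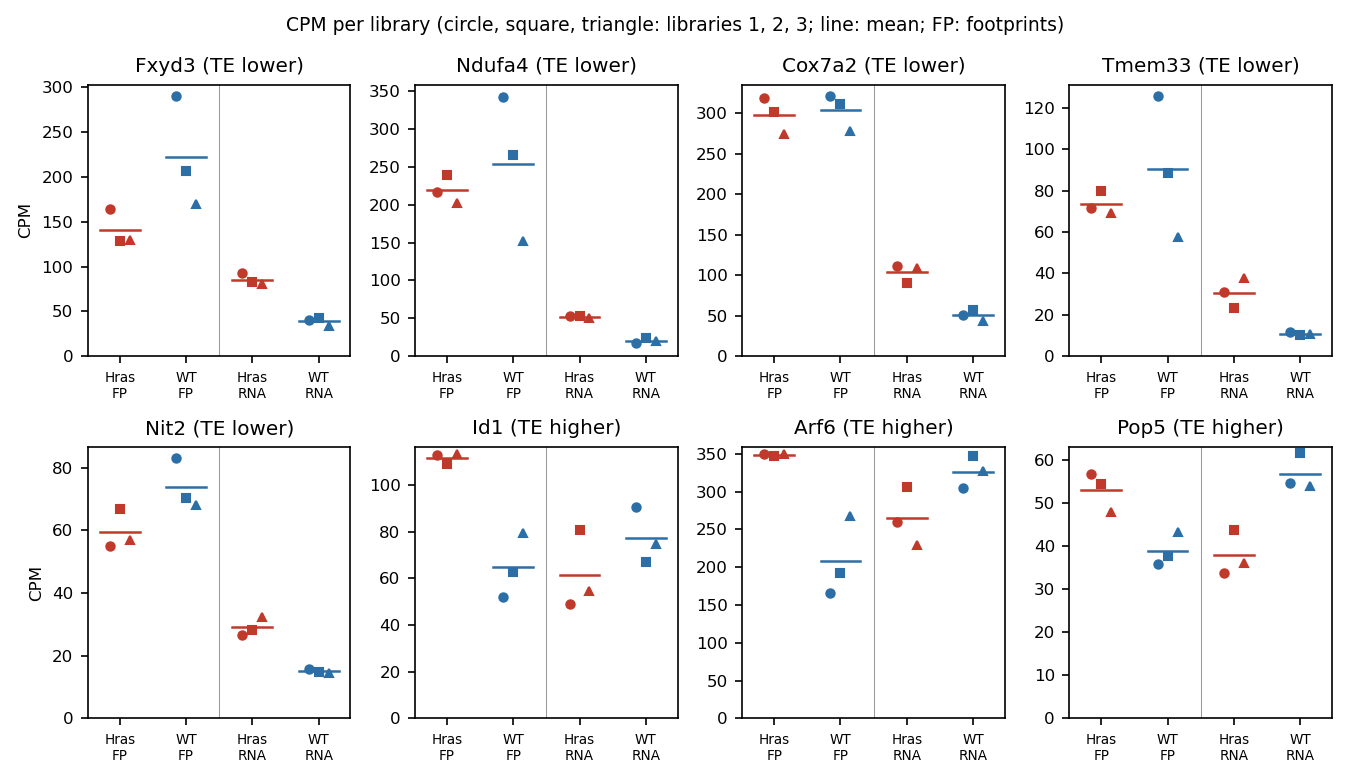
CPM per library (counts scaled to library size; circle, square and triangle for libraries 1, 2 and 3, line for the mean) of 5 genes of lower TE and 3 genes of higher TE, with HrasG12V left of WT for footprints (FP) and for RNA. In Ndufa4, Cox7a2 and Tmem33 the RNA groups are apart and the footprint groups overlap, and in Id1 and Arf6 the footprint groups are apart and the RNA groups overlap.

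Of the 31 gene lists, that of oxidative phosphorylation subunits, which make up the respiratory chain and ATP synthase, held the most TE calls. Of 79 nuclear-encoded subunits tested, 8 fell and 1 rose in TE, against 1.02% and 0.148% of all genes, and the median TE difference was −0.15 (0.29 in RNA and 0.12 in footprints). Ndufa4 (ENSMUSG00000029632.7; mm10 chr6:11900292-11907497, minus strand), a subunit of cytochrome c oxidase once assigned to complex I, had 53.5, 52.6 and 50.8 CPM of RNA in HrasG12V shScram and 17.8, 23.3 and 19.4 CPM in WT shScram. Its footprints were 217, 240.0 and 203 CPM in HrasG12V shScram, against 343, 266 and 152 CPM in WT shScram, which overlapped. TE of Ndufa4 fell 3.00-fold (log2 −1.58, SE 0.29, adjusted p 0.0119). Cox7a2, another subunit of cytochrome c oxidase, had nearly level footprints, with 318, 302 and 275 CPM in HrasG12V shScram, against 321, 311 and 278 CPM in WT shScram, beside RNA of 111, 90.8 and 109 CPM and 50.9, 57.0 and 43.8 CPM. Its TE fell 2.11-fold (log2 −1.08, SE 0.19, adjusted p 0.0119). Atp5g1, which encodes the c subunit of the ATP synthase rotor, fell 2.34-fold (adjusted p 0.0173), with 134, 117 and 115 CPM of RNA in HrasG12V shScram and 65.9, 86.0 and 65.7 CPM in WT shScram. The other subunits that fell were Atp5j, Atp5l, Cox7a2l, Uqcrb and Ndufa3, which the rule did not name, with log2 differences of −1.10 to −0.97 and adjusted p of 0.0361 to 0.0486. Cox6a1 rose in TE by 0.80 (adjusted p 0.0495) and was likewise outside the rule. Its RNA was 202, 212 and 181 CPM in HrasG12V shScram, against 319.7, 308 and 287 CPM in WT shScram. Without HrasG12V shScram RNA libraries 1 and 3 the list had no called member and a median of −0.08, with adjusted p of 0.174 for Ndufa4, 0.172 for Cox7a2 and 0.155 for Atp5g1. With 1 library left out, the list had 3, 3 and 2 calls without HrasG12V shScram footprint library 1, 2 or 3, and 2, 6 and 17 without WT shScram footprint library 1, 2 or 3. It had 2, 18 and 3 calls without HrasG12V shScram RNA library 1, 2 or 3, and 4, 3 and 4 without WT shScram RNA library 1, 2 or 3. Over all genes, 693 of 10918 were called without HrasG12V shScram RNA library 2 and 384 of 10840 without WT shScram footprint library 3. Atp5j, Atp5l, Cox7a2l, Uqcrb, Ndufa3 and Cox6a1 kept their calls in 2 to 4 of these 12 fits, with adjusted p of 0.12 to 0.188 without WT shScram footprint library 1, and the 5 lower ones were not called once offsets for GC and length were in the fit (0.0606 to 0.168). Atp5g1 lost its call without HrasG12V shScram footprint library 3 (0.071), WT shScram footprint library 1 (0.0717) or HrasG12V shScram RNA library 1 (0.0568).

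The other lists of housekeeping complexes held few calls in the fit of all libraries. Mitochondrial ribosomal proteins (77 tested) had no call and a median TE of −0.14, with Mrpl42 at −0.90 (adjusted p 0.116). Proteasome subunits (36 tested) had 1, the 20S subunit gene Psmb2, whose RNA was 80.5, 67.5 and 89.6 CPM in HrasG12V shScram, against 34.0, 52.3 and 45.2 CPM in WT shScram (TE −0.89, SE 0.21, adjusted p 0.0352; 0.12 without WT shScram footprint library 1). The list's median of −0.15 was 0.02 with offsets for coding GC and length. Proteasome and mitochondrial ribosomal lists had 7 and 5 calls without HrasG12V shScram RNA library 2, where 693 of 10918 genes were called. They had 5 and 2 without WT shScram footprint library 3, where 384 of 10840 were called. With any other single library left out, each had 0 or 1. Cholesterol synthesis genes (24 tested) had no TE call and a median of −0.19, with RNA called higher in 12 of them, against 7.87% of all genes, and footprints in none, against 0.991% (medians 0.50 and 0.28). The TE median was −0.05 without HrasG12V shScram RNA libraries 1 and 3. Idi1, which makes the isoprenoid building block dimethylallyl diphosphate, had 100.2, 57.0 and 85.7 CPM of RNA in HrasG12V shScram and 26.7, 29.1 and 44.1 CPM in WT shScram, and its TE difference of −1.10 was not called (adjusted p 0.0737). Glycolysis genes (16 tested) had a median TE of 0.12 and ER chaperones (20 tested) one of −0.11, both with no call, and the members with the smallest p were Pkm (0.55, adjusted p 0.169) and Dnajb9 (−1.10, adjusted p 0.144).

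The 10 lowest TE differences that the rule for named genes takes, from called genes with a mean of at least 10 CPM in both kinds and a gene symbol that is no clone name, also included Tbp, Nup35, Nutf2, Cfap20 and Lage3. The minimum was set on the mean of both groups, and the WT mean was under it in RNA of Tbp, Nup35 and Cfap20, and the HrasG12V mean in footprints of Lage3 and Sprr1a, so these genes passed it through the group where they were higher. Tbp, the TATA-binding protein, had 20.7, 12.2 and 13.5 CPM of RNA in HrasG12V shScram and 5.25, 3.10 and 8.10 CPM in WT shScram, beside footprints of 26.3, 19.6 and 15.9 CPM and 30.5, 23.3 and 24.7 CPM (TE −1.76, SE 0.37, adjusted p 0.0213). Nup35, a nucleoporin, had 20.7, 11.6 and 18.9 CPM of RNA in HrasG12V shScram and 3.64, 5.81 and 8.82 CPM in WT shScram (TE −1.67, adjusted p 0.0119). Nutf2, which imports the GTPase Ran into the nucleus, had 48.4, 38.2 and 41.4 CPM of RNA in HrasG12V shScram and 17.0, 23.6 and 16.4 CPM in WT shScram (TE −1.68, adjusted p 0.0262). In these 3 genes the RNA groups did not overlap. Cfap20, a ciliary protein, reached −1.74 (adjusted p 0.0213) with overlapping RNA groups, 28.5, 9.96 and 29.6 CPM in HrasG12V shScram against 6.87, 9.69 and 10.4 CPM in WT shScram, and its adjusted p was 0.772 without HrasG12V shScram RNA libraries 1 and 3. Lage3, a subunit of a tRNA-modifying complex, reached −1.67 (adjusted p 0.031), with 7.35, 6.81 and 9.18 CPM of footprints in HrasG12V shScram against 19.0, 18.3 and 6.99 CPM in WT shScram, where 1 WT library lay among the HrasG12V values. Nup35 kept its call in 11 of the 12 fits without 1 library, Tbp in 6, Nutf2 and Cfap20 in 5 and Lage3 in 3. Without HrasG12V shScram RNA library 1 the adjusted p of Nup35 was 0.0568, and without WT shScram footprint library 1 that of Tbp, Nutf2, Cfap20 and Lage3 was 0.0996, 0.0807, 0.0996 and 0.135.

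Replication-dependent histones, whose mRNAs are made in S phase and lack a poly(A) tail, had 4 called members of 57 tested, all lower in TE, against 1.02% of all genes. The median of the list was −0.27, with −0.22 in footprints and 0.07 in RNA. Near-identical copies share reads, so the values of single histone genes are uncertain. Hist1h3a, a histone H3 gene, had 49.2, 48.5 and 45.2 CPM of footprints in HrasG12V shScram and 92.8, 85.1 and 58.6 CPM in WT shScram. Its RNA was 112, 101 and 130.3 CPM in HrasG12V shScram, against 64.3, 64.7 and 54.6 CPM in WT shScram. All HrasG12V libraries were below all WT libraries in footprints and above them in RNA, and Hist1h3a TE fell 3.13-fold (log2 −1.65, SE 0.28, adjusted p 0.00934). The histone H4 genes Hist1h4j (TE −2.20, SE 0.42, adjusted p 0.0213) and Hist1h4c (TE −1.23, SE 0.26, adjusted p 0.0213) fell as well. So did Hist1h2af, a histone H2A gene outside the rule, with 156, 171 and 173 CPM of footprints in HrasG12V shScram against 261, 332 and 187 CPM in WT shScram (TE −1.14, adjusted p 0.0474; 0.0192 without HrasG12V shScram RNA libraries 1 and 3 and 0.143 without WT shScram footprint library 1). Hist1h2af kept its call in 2 of the 12 fits without 1 library. These are genes of high coding GC (median 63.9%), and the list's median was −0.44 with offsets for GC and length and −0.42 without the 2 RNA libraries. With offsets, the adjusted p of Hist1h3a, Hist1h4j and Hist1h4c was 0.0659, 0.0562 and 0.0995. The list had 2, 1 and 1 calls without HrasG12V shScram footprint library 1, 2 or 3, and 1, 3 and 9 without WT shScram footprint library 1, 2 or 3. It had 1, 7 and 1 calls without HrasG12V shScram RNA library 1, 2 or 3, and 2, 3 and 1 without WT shScram RNA library 1, 2 or 3. Over all genes, 693 of 10918 were called without HrasG12V shScram RNA library 2 and 384 of 10840 without WT shScram footprint library 3. Without WT shScram footprint library 1 the adjusted p of Hist1h4c was 0.0996, and without HrasG12V shScram footprint library 3 that of Hist1h4j was 0.071. S phase genes (36 tested) and G2/M genes (32 tested) had no call and medians of 0.00 and −0.22. They had 3 and 2 calls without HrasG12V shScram RNA library 2, and 1 and 2 without WT shScram footprint library 3. The G2/M median was −0.05 with offsets for coding GC and length and −0.11 without HrasG12V shScram RNA libraries 1 and 3. The spindle checkpoint gene Mad2l1 (−0.97, adjusted p 0.0737) had the smallest p of the G2/M list.

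Among the 16 genes of higher TE, footprints were themselves called higher in Id1, Arf6, Klhl18, Mif4gd and Fbxo9. Id1 (ENSMUSG00000042745.9; mm10 chr2:152736251-152737410, plus strand), an inhibitor of basic helix-loop-helix factors that holds back differentiation, had 113, 109 and 113 CPM of footprints in HrasG12V shScram, against 52.0, 62.9 and 79.3 CPM in WT shScram. Its RNA was 49.2, 80.8 and 54.7 CPM in HrasG12V shScram, against 90.5, 67.0 and 74.6 CPM in WT shScram, with 1 HrasG12V library inside the WT range. TE of Id1 rose 2.22-fold (log2 1.15, SE 0.24, adjusted p 0.0213; footprints 0.79, adjusted p 0.0128). Arf6, a small GTPase of membrane traffic at the cell surface, had 349.8, 347 and 350.0 CPM of footprints in HrasG12V shScram and 165, 192 and 267 CPM in WT shScram, with no overlap. Its TE rose 2.07-fold (SE 0.23 on the log2 scale, adjusted p 0.0226), beside an RNA difference of −0.30 that was not called. Klhl18, an adaptor of CUL3 ubiquitin ligases, rose 2.21-fold in TE (adjusted p 0.0291) with 30.1, 25.3 and 20.4 CPM of footprints in HrasG12V shScram and 10.1, 17.2 and 13.0 CPM in WT shScram. Mif4gd, which binds the histone mRNA stem-loop protein and takes part in histone mRNA translation, rose 2.24-fold (adjusted p 0.0294) with 22.9, 21.5 and 21.3 CPM of footprints and 10.3, 11.5 and 15.2 CPM in the same order. The last of them was Fbxo9, an F-box protein outside the rule because its footprints averaged under 10 CPM, with 14.7, 11.4 and 13.9 CPM of footprints in HrasG12V shScram against 6.71, 5.21 and 5.99 CPM in WT shScram and level RNA (50.3, 53.1 and 50.6 CPM against 55.0, 55.8 and 52.8 CPM). Its TE rose 2.39-fold (SE 0.26 on the log2 scale, adjusted p 0.0213).

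In the other 11 the RNA was called lower. Ctnnbip1, an inhibitor of beta-catenin binding to TCF factors, had 18.8, 34.9 and 30.7 CPM of RNA in HrasG12V shScram and 62.2, 72.5 and 54.7 CPM in WT shScram, beside footprints of 34.3, 40.0 and 35.4 CPM and 24.6, 37.3 and 33.2 CPM. Its TE rose 2.64-fold (SE 0.31 on the log2 scale, adjusted p 0.0261). Pop5, a subunit of RNase P and RNase MRP, had groups apart in both kinds, with 56.6, 54.5 and 47.9 CPM of footprints in HrasG12V shScram against 35.8, 37.6 and 43.2 CPM in WT shScram and 33.8, 43.7 and 36.0 CPM of RNA against 54.6, 61.6 and 53.8 CPM. Pop5 TE rose 2.07-fold (adjusted p 0.0213). Banf1 (barrier-to-autointegration factor, 2.25-fold, adjusted p 0.0389), the deubiquitinase gene Usp20 (2.14-fold, adjusted p 0.0434), the small GTPase gene Rhob (2.05-fold, adjusted p 0.0361) and the vesicle tethering gene Trappc3 (1.85-fold, adjusted p 0.0389) rose as well. Cdkn2b, the CDK4 and CDK6 inhibitor p15, lay outside the rule and was chosen after its values were seen. It had 7.57, 6.26 and 6.49 CPM of footprints in HrasG12V shScram against 2.80, 4.75 and 2.25 CPM in WT shScram and 8.73, 8.85 and 7.07 CPM of RNA against 17.0, 16.7 and 14.4 CPM. Both kinds were low but apart, and Cdkn2b TE rose 3.98-fold (log2 1.99, SE 0.48, adjusted p 0.0392). Pet117 had the highest value of the 16 (2.11, SE 0.47, adjusted p 0.0271), at 3.80, 6.09 and 1.93 CPM of RNA in HrasG12V shScram and 10.9, 10.9 and 14.9 CPM in WT shScram, and shares exons with Kat14 on the same strand, so its counts are uncertain. No gene of higher TE kept its call in more than 6 of the 12 fits without 1 library (Pop5 in 6, Id1 in 5, Arf6, Ctnnbip1 and Klhl18 in 4). Without WT shScram footprint library 1, the adjusted p of Pop5, Id1, Arf6, Ctnnbip1 and Klhl18 was 0.0807, 0.104, 0.109, 0.111 and 0.127, that of Banf1, Mif4gd, Trappc3, Rhob and Usp20 was 0.135, 0.127, 0.144, 0.14 and 0.171, and that of Cdkn2b and Pet117 was 0.141 and 0.109. Without HrasG12V shScram footprint library 3 that of Fbxo9 was 0.0728.

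The translation machinery showed small median differences and, in the fit of all libraries, 1 call. Cytosolic ribosomal proteins, whose mRNAs carry 5' TOP motifs read by the mTOR pathway, had no call in 81 tested and a median TE of 0.10 (footprints 0.14, RNA 0.06), which was −0.08 when RNA was taken only from libraries over 4000000 counts, a setting chosen after the data had been seen. Rps27l had the smallest p (−0.86, adjusted p 0.0517) and shares sequence with Rps27, so its counts are uncertain. The ribosomal list had 8 calls without HrasG12V shScram RNA library 2, where 693 of 10918 genes were called. It had 6 without WT shScram footprint library 3, where 384 of 10840 were called, and 0 or 1 with any other single library left out. Other TOP mRNAs (18 tested) had a median of 0.12 with no call, and the smallest p belonged to Btf3 (−0.58, adjusted p 0.116). They had 1 and 3 calls in the same 2 fits. In the list of eIF2, eIF2B and eIF2 kinases (12 tested) there was no call and a median of −0.14, which was 0.16 without HrasG12V shScram RNA libraries 1 and 3, and the kinase gene Eif2ak2 had −0.72 (adjusted p 0.362). Among 26 other initiation factors the median was 0.11, and 1 was called, against 1.02% of all genes called lower. It was Eif1, the factor that keeps the scanning ribosome from starting at the wrong codon. Eif1 had 599.5, 552 and 522 CPM of footprints in HrasG12V shScram and 885, 571 and 659 CPM in WT shScram, and 223, 182 and 235 CPM of RNA in HrasG12V shScram and 118, 138 and 96.7 CPM in WT shScram. The RNA groups were apart and the footprint groups overlapped. Its TE fell 2.31-fold (log2 −1.21, SE 0.25, adjusted p 0.0213; 0.0996 without WT shScram footprint library 1). Cytosolic tRNA synthetases (19 tested) had a median of 0.17 and no call, with Nars at 0.62 (adjusted p 0.17).

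Genes that respond to limiting eIF2 were not called in TE. The list of mRNAs with regulatory upstream reading frames (11 tested) had a median of 0.15 and 2 negative members. Atf4, the transcription factor whose upstream frames are bypassed when eIF2 is scarce, had 49.2, 51.8 and 41.8 CPM of footprints in HrasG12V shScram and 16.2, 17.9 and 32.7 CPM in WT shScram. Its RNA was 268, 195 and 230.2 CPM in HrasG12V shScram, against 183, 183 and 180.1 CPM in WT shScram. HrasG12V libraries were above WT libraries in both kinds. The footprint difference of 1.09 was called (adjusted p 0.00292), the RNA difference of 0.35 was not (adjusted p 0.189), and the TE difference was 0.74 (95% interval 0.19 to 1.29, adjusted p 0.167; 0.0101 without WT shScram footprint library 3). ATF4 target genes (26 tested) had a median TE of 0.00 and no call, with Cebpg at −0.60 (adjusted p 0.23).

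Genes of RAS-ERK output had calls in footprints and in RNA and, in the fit of all libraries, none in TE. The list had 3 TE calls without HrasG12V shScram RNA library 2 and 1 without WT shScram footprint library 3. In the RAS-ERK list (22 tested) footprints were called higher in 9 (0.991% of all genes) and RNA in 7 (7.87% of all genes), with medians of 0.67 and 0.45, and the median TE difference was 0.09. Spred1, a feedback inhibitor of RAF activation, had the smallest p. It had 49.0, 47.4 and 46.5 CPM of footprints in HrasG12V shScram against 23.8, 14.5 and 28.2 CPM in WT shScram, with RNA of 108, 70.3 and 122 CPM and 95.8, 79.4 and 98.9 CPM. The footprint groups were apart and the RNA groups overlapped, and the TE difference was 0.96 (95% interval 0.42 to 1.51, adjusted p 0.0685). It was called with offsets for coding GC and length (0.0205) and without HrasG12V shScram RNA libraries 1 and 3 (0.0387). Wound and stress keratinocyte genes (14 tested) were called higher in RNA in 8, against 7.87% of all genes, and in footprints in 5, against 0.991%, with medians of 1.17 and 0.89. The median TE was −0.42, which was −0.11 with offsets for coding GC and length and −0.28 without HrasG12V shScram RNA libraries 1 and 3. Sprr1a, a precursor of the cornified envelope, was its 1 call, and it went the other way in footprints, with 5.57, 8.99 and 6.27 CPM in HrasG12V shScram against 19.3, 18.8 and 10.5 CPM in WT shScram. Its RNA was 19.0, 20.5 and 9.86 CPM in HrasG12V shScram, against 12.9, 12.4 and 6.66 CPM in WT shScram, which overlapped. Sprr1a TE fell 3.69-fold (log2 −1.88, SE 0.45, adjusted p 0.0389; 0.135 without WT shScram footprint library 1).

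The basal, spinous, granular and cornified, and hair follicle lists held no TE call in the fit of all libraries. In this order they held 1, 1, 0 and 0 without HrasG12V shScram RNA library 2. They held 1, 1, 2 and 1 without WT shScram footprint library 3. Basal keratinocyte genes (16 tested) had a median TE of 0.20, with RNA called lower in 3 (4.63% of all genes) and footprints in none (medians −0.34 and −0.05). Krt5, a keratin of the basal layer whose relatives share some of its sequence, had 0.73 (adjusted p 0.155). Spinous genes (12 tested) had a median of 0.16, which was −0.02 without WT shScram footprint library 3 or WT shScram RNA library 2. Granular and cornified genes (21 tested) had one of −0.08, which was 0.36 without WT shScram footprint library 2. The smallest p in these lists belonged to Serpinb5 (−0.70, adjusted p 0.1) and the lipase gene Lipk (−1.56, adjusted p 0.14). Hair follicle genes (19 tested) had a median TE of 0.15, which was −0.02 without HrasG12V shScram RNA libraries 1 and 3, with RNA called lower in 8, against 4.63% of all genes, and footprints in 1, against 0.361%, and Krt17 was at 0.80 (adjusted p 0.141). Collagens (25 tested) had a median of 0.11, which was −0.11 with offsets for coding GC and length, and Col14a1 was at −0.40 (adjusted p 0.363). Zinc-finger genes of the Zfp series (254 tested) had a median of −0.16, which was −0.04 with offsets for coding GC and length, and 2 calls, a share below the 1.02% of all genes called lower. They were Zfp207 and Zfp160 (TE −1.36, adjusted p 0.0404; 0.144 without WT shScram footprint library 1).

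All 12 tested melanocyte genes had a negative TE difference, beside 5578 of 10793 genes in all, and only Tyr among them was called. The median was −0.47, from an RNA median of 0.64 and a footprint median of 0.07, and it was −0.37 without HrasG12V shScram RNA libraries 1 and 3. Tyr, which encodes tyrosinase, the enzyme that starts melanin synthesis, was the called member. Its RNA was 30.6, 32.1 and 33.4 CPM in HrasG12V shScram, against 15.4, 14.7 and 15.1 CPM in WT shScram, with no overlap. Its footprints were 112, 96.1 and 94.9 CPM in HrasG12V shScram, against 113, 93.5 and 91.6 CPM in WT shScram, nearly the same. Tyr TE fell 2.08-fold (log2 −1.06, SE 0.23, adjusted p 0.0226; 0.104 without WT shScram footprint library 1 and 0.195 without HrasG12V shScram RNA libraries 1 and 3). Summed over 13 melanocyte markers, RNA was 730 to 873 CPM in HrasG12V shScram and 472 to 677 CPM in WT shScram, and footprints were 1669 to 1985 CPM and 1467 to 1725 CPM. In these bulk samples, more cells of a type and more RNA per cell cannot be told apart. Dermal fibroblast genes (10 tested) had a median TE of 0.10 and no TE call. The 12 fibroblast markers summed to 3029 to 4096 CPM of footprints in HrasG12V shScram and 3049 to 4488 CPM in WT shScram. Their RNA sums were 1562 to 2214 CPM and 1662 to 3314 CPM in the same order. Other minor cell types were thinly covered, with 5 Merkel cell genes (median TE −0.22), 5 immune genes (−0.52) and 1 each of the endothelial, red cell and skeletal muscle lists tested, and no TE call. The immune median was 0.46 and the Merkel cell median 0.16 without HrasG12V shScram RNA libraries 1 and 3, and the fibroblast median was −0.39 without WT shScram RNA library 1. Atoh1, a Merkel cell factor, was at −0.58 (adjusted p 0.671), Dcn, a fibroblast gene, at −0.80 (adjusted p 0.133), and Cd74 of antigen-presenting cells at −1.20 (adjusted p 0.258).

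**Figure D4:**
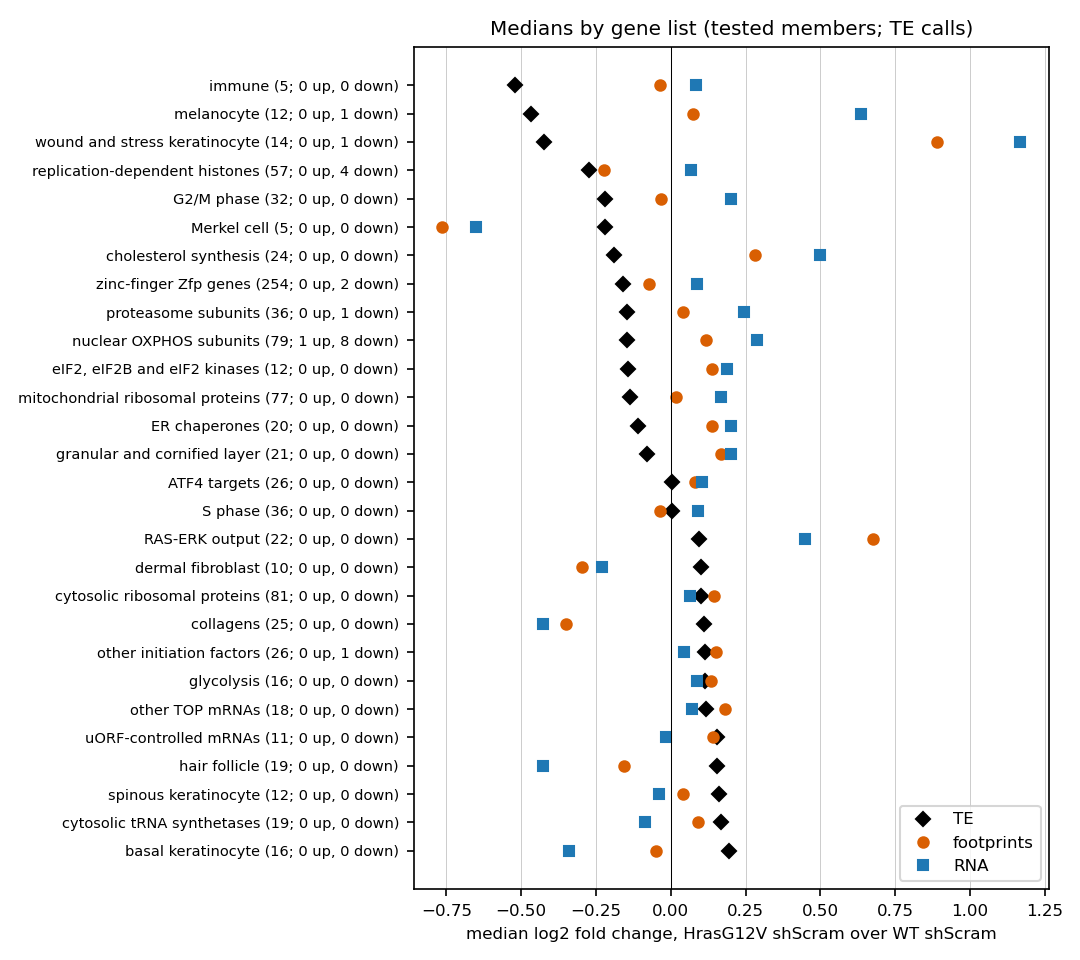
Median log2 fold change, HrasG12V shScram over WT shScram, of the tested members of each gene list in TE (diamonds), footprints (circles) and RNA (squares), with the number tested and the TE calls beside each name. Lists with at least 5 tested members are drawn. Wound and stress keratinocyte and RAS-ERK lists lie far right in both footprints and RNA, and the melanocyte list lies right in RNA (0.64) with TE at −0.47.

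Coding sequences of the lower genes were shorter and poorer in GC than those of tested genes in general. Their coding sequences had a median GC of 46.8% and a median length of 795 bases, against 52.9% and 1428 bases over all tested genes, and 40 of the 110 were under 600 bases (36.4%, against 12.2% of all). The 849 genes of higher RNA were nearly as poor in GC, with a median of 47.1% and a median length of 1062 bases. The 16 genes of higher TE had a median GC of 57.6% and a median length of 535.5 bases, and 10 of them were under 600 bases (62.5%). Of the 110, 56 were in the lowest of 5 equal classes of genes by coding GC and 8 in the highest, and none of the 16 was in the lowest. Over all genes the median TE difference followed the same order, from the lowest to the highest class −0.29, −0.07, 0.01, 0.10 and 0.16. The RNA medians were 0.30, 0.10, −0.01, −0.14 and −0.25, and the footprint medians 0.02, 0.02, 0.00, −0.04 and −0.09. This order was not seen without HrasG12V shScram RNA libraries 1 and 3, where the 5 medians of TE were −0.06, 0.03, 0.05, 0.03 and −0.07.

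**Figure D5:**
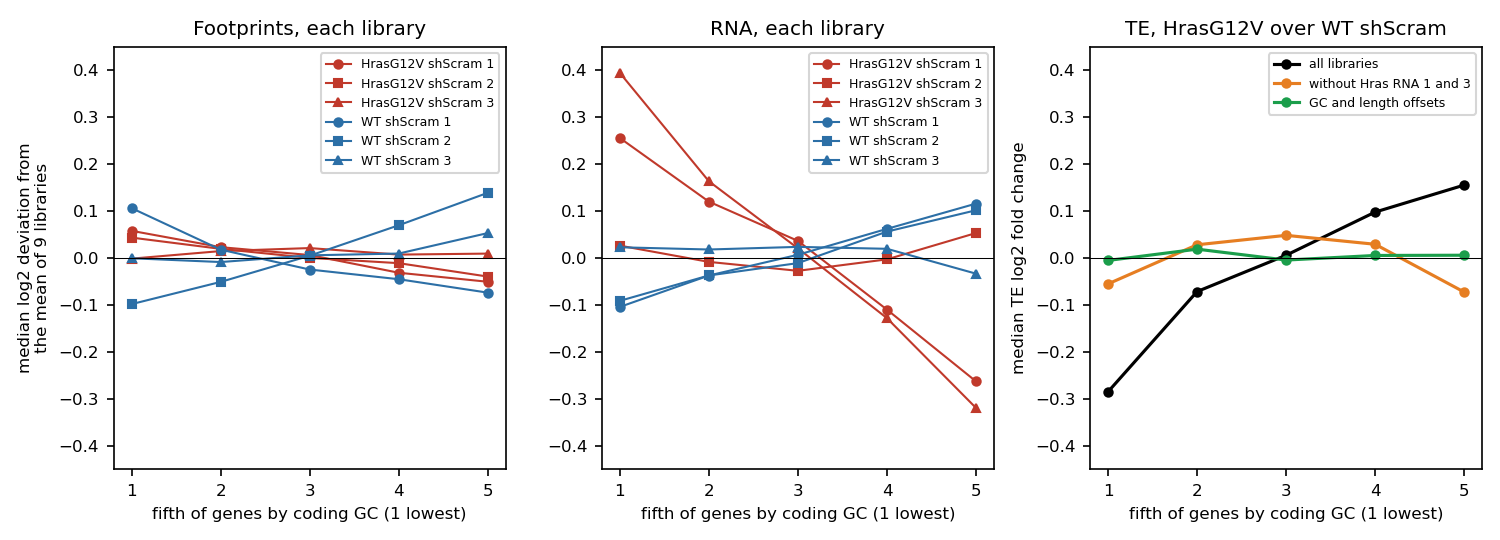
Median deviation of each library from the mean of the 9 libraries of its kind (log2) over 5 equal classes of genes by coding GC, for footprints and RNA, and median TE log2 fold change (HrasG12V shScram over WT shScram) over the same classes. HrasG12V shScram RNA libraries 1 and 3 fall steeply with GC, and the TE line climbs from −0.29 to 0.16 with all libraries and lies between −0.07 and 0.05 without them.

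The RNA difference of the called genes was also read within RNA libraries of like depth, a split chosen after the data had been seen. Between libraries over 4000000 counts (HrasG12V shScram 1 and 3, WT shScram 3), the 110 lower genes had a median RNA difference of 1.00. Between libraries under 4000000 counts (HrasG12V shScram 2, WT shScram 1 and 2) it was 0.66, beside 0.00 over all genes in both. The 16 higher genes had medians of −0.60 and −0.61. The called genes were chosen on these same libraries, so their signs here are largely fixed by the choice. With offsets for coding GC and length in each library, 86 genes were called, 62 lower and 24 higher (27.9% higher, against 12.7% with no offsets), and 50 of the 110 and 12 of the 16 kept the call.

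The third condition, HrasG12V shEif2b5, shares its WT libraries with this comparison, so its values stand beside these and add no separate support. The 110 genes of lower TE had medians of −0.16 in TE, −0.08 in RNA and −0.25 in footprints there, against −1.15, 0.94 and −0.22 in HrasG12V shScram. The 16 genes of higher TE had a median TE of 0.36 in HrasG12V shEif2b5 and 1.16 in HrasG12V shScram. Fxyd3, Ndufa4 and Tmem33 had TE differences of −0.42, −0.01 and −0.39 in HrasG12V shEif2b5, against −1.81, −1.58 and −1.85 in HrasG12V shScram. These genes were chosen on their values in HrasG12V shScram, so smaller differences in HrasG12V shEif2b5 are in part fixed by the choice. RNA libraries of HrasG12V shEif2b5 also leaned the other way by coding GC. The lowest class stood at −0.31, −0.08 and −0.46 against the highest in these 3 libraries. In HrasG12V shScram RNA libraries 1 and 3 it stood at 0.52 and 0.71. The difference between the 2 conditions was not tested here.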

How the data were processed

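The deposited files hold raw read counts per coding sequence for each of 18 libraries, and these counts are not normalized. Bowtie, TopHat2, HTSeq and the genome build mm10 are named in the submitters' processing notes, and their versions, the annotation and the strand setting are not given in the sources used here. Of 20655 gene names, 99.3% matched GENCODE M21 (19889 by symbol, 613 by synonym), and 27 names had been turned into dates.

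Genes passing edgeR's filterByExpr (minimum count 10, total 15) in both library kinds were kept. Counts were fitted with edgeR 4.0.16 in R 4.3.3 (robust quasi-likelihood, TMM factors within each kind, 6 group means over 18 libraries, biological coefficient of variation 0.149), and the TE difference was the interaction contrast, with calls where the Benjamini-Hochberg adjusted p was below 0.05. CPM values are scaled by the TMM factors. Intervals are 95%. The procedure was tested on simulated data with the same spread for all genes and libraries, no slant by coding GC and no outlying library. That test does not cover the dependence of the calls on single libraries.

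Named genes were Hras, Eif2b5 and Atf4; among called genes with a mean of at least 10 CPM over the 6 libraries of each kind, without predicted or clone names (Gm, Rik) or date-like names, the 10 highest, the 10 lowest and the 6 of smallest p in each direction; and from each of 31 lists up to 3 called members, or the 1 of smallest p. Genes outside this rule are named as such. The value of 1 gene that the rule picks is not reported here. The comparison and the lists were chosen with earlier results of these data known. Alternatives covered scaling, filters, DESeq2 1.42.0, limma 3.58.1 (voom), replicate blocks, offsets for coding GC and length, and libraries left out.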

Additional observations from a re-analysis of the deposited data

How the results depend on the processing

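Other scaling factors, other filters, leaving out the 20 most abundant genes and limma voom each kept the count of TE calls within 1.5 times of 126. DESeq2's Wald test called 267 (203 lower, 64 higher) and the fit of only the 12 libraries of both conditions 43 (36 lower, 7 higher). With 1 library left out the calls ranged from 11 to 693, the lower ones from 11 to 446 and the higher ones from 0 to 247. Without HrasG12V shScram RNA libraries 1 and 3 together there were 8 (6 lower, 2 higher). Offsets for coding GC and length left 62 lower calls. In settings chosen after seeing the data, RNA from libraries over 4000000 counts only gave 54 calls (42 lower), RNA from libraries under 4000000 counts only gave 1 (1 lower, 0 higher), and a term for depth gave 103. No label ties same-numbered libraries together. Residuals of same-numbered footprint and RNA libraries correlated at 0.02 to 0.28, and 8 of 9 correlated best with their own number, which hints at pairing without showing it. Residuals were taken from means of 3 libraries, so the 9 comparisons are not independent, and the count was not tested. A replicate block of condition by number gave 165 calls, 38 of them higher, one of number within each kind gave 69 lower calls, and the block joined to the GC and length offsets gave 64 higher calls. The TE difference of Eif2b5 turned to 0.18 without HrasG12V shScram RNA library 2 (range with 1 library left out −0.78 to 0.18). It was 0.13 with RNA over 4000000 counts only. When RNA libraries 1 and 3 were both dropped, Eif2b5 RNA in HrasG12V shScram came from library 2 alone. That library held 387 CPM of it, against 126 and 144 CPM in libraries 1 and 3, so no conclusion was drawn there. Atoh1 turned to 0.0755 without HrasG12V shScram RNA library 3 (range −1.11 to 0.08), and Hras to −0.0542 with RNA over 4000000 counts only. The causes were not tested. HrasG12V shScram RNA library 2 (1771365 counts) limits what can be seen at low RNA levels.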
